A study of Homo sapiens with 12 samples.

Results

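The lysosomal module comprised 49 genes chosen by name: acid hydrolases, the proteins that help them, proteins of the lysosomal membrane, subunits of the proton pump and the TFE transcription factors. All 49 were found among the 58735 genes measured by RNA sequencing in KGN and COV434 cells, with 1 entry each, and the rule that names them holds no threshold on expression. The 49 were 11 proteases, 11 glycosidases, 5 sulfatases, 8 lipid hydrolases and lumenal helpers, 7 membrane proteins, 4 subunits of the V-ATPase and 3 TFE regulators.

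The study asked how 77-39, a selective inhibitor of the mitochondrial deacetylase SIRT3, acts on granulosa cell tumor (GCT) cells. It used senescence-associated β-galactosidase staining among its readouts. The study describes the KGN line as adult-type GCT and COV434 as juvenile-type, and both are labelled as wild type. Total RNA from each line was sequenced without treatment and after 72 h with 77-39, with 3 libraries per line and treatment and 12 libraries in all. The dose is labelled "10μm/ml", which does not say whether a concentration or a mass is meant, and the same treatment text also stands on the control labels. Both lines had the same labelled medium, and a vehicle for the untreated cells was not given in the sources used here. Each line is a single established line, and nothing in the labels says that the 3 libraries of a group came from separate cultures. The p-values therefore measure the spread between these libraries, which may be technical.

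Lysosomes degrade proteins, glycans and lipids with hydrolases that work at acid pH, which the V-ATPase maintains by pumping protons into the lumen. Many genes of this system carry a short E-box motif near their start, the CLEAR element, to which TFEB, TFE3 and MITF bind. These factors are kept in the cytoplasm when mTORC1 phosphorylates them at the lysosomal surface, so their activity is set largely by location rather than by RNA level. GLB1 encodes the lysosomal β-galactosidase whose activity the senescence stain reports, and a larger lysosomal compartment is a known trait of senescent cells.

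Libraries held between 15547851 and 18280415 reads on genes, and 3 reads on a gene of 1 kb were worth between 0.152 and 0.2 FPKM (fragments mapped per unit of gene length and of library size), so counting error was small for most of the 49. The spread between libraries differed by line. Between libraries of the same group the chi-square of read counts per gene was 2.36 to 8.36 in KGN and 15.6 to 89.9 in COV434, where both libraries numbered 1 stood farthest from the others of their group. Mitochondrially encoded genes took 7.3 to 8.81% of reads in KGN and 7.71 to 13.5% in COV434, with the highest share in treated library 1. Immune markers (PTPRC, CD14, CSF1R, CD3E) summed to at most 0.612 FPKM in any library, with CD3E at 0 in all 12. SIRT3 was read at 3.63 to 4.55 FPKM in KGN and 3.36 to 4.95 FPKM in COV434.

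FOXL2 went against the labels of the lines, and SMARCA2 had the same pattern, nearly absent under the KGN label and present under the COV434 label. WT1 had the reverse pattern. The other markers were lower under the KGN label or did not separate the lines. FOXL2, the granulosa transcription factor whose mutation marks adult-type GCT, was covered by 2 reads over the 6 libraries that carry the KGN label and stood at 11.5 to 14.0 FPKM in those labelled COV434. WT1 was at 45.9 to 61.4 FPKM in libraries labelled KGN and at 0 in those labelled COV434. The chromatin remodeller SMARCA2 had 13 reads over the same 6 KGN libraries and 4.51 to 6.48 FPKM in those labelled COV434. FSHR was at 0 in every library, GATA4 and NR5A1 had at most 6 reads per line, and CYP19A1 overlapped between the lines. AMH, INHA and SMARCA4 were lower in libraries labelled KGN. KGN and COV434 are used below as the names the libraries carry, and every direction between the lines rests on those labels.

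More lysosomal genes were higher than lower with 77-39 in libraries labelled KGN. Of the 44 members that reached a mean of 1 FPKM, 24 were higher, 2 were lower and 18 did not pass the test at an adjusted p under 0.05, whereas 17.6% of all 12671 genes tested were higher and 16.4% lower. The median difference on the log2(FPKM + 1) scale was 0.25 over the 44 members and 0.01 over all genes tested. The summed FPKM of the 49 was 831, 853 and 838 in the untreated libraries and 1055, 1060 and 1094 in the treated libraries. Groups of 3 libraries did not overlap for 32 members that were higher and 2 that were lower, against 26.3% and 23.4% of all genes. Without adjustment 32 members were higher and 3 lower at p under 0.05, where 23.7% and 21.6% of all genes passed. These values come from limma on log2(FPKM + 1), two-sided, with Benjamini-Hochberg adjustment over all genes tested, and all fold changes below are on that scale unless given as a ratio of means. In bulk RNA a change per cell and a change in the share of cells that express a gene cannot be told apart.

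**Figure D1:**
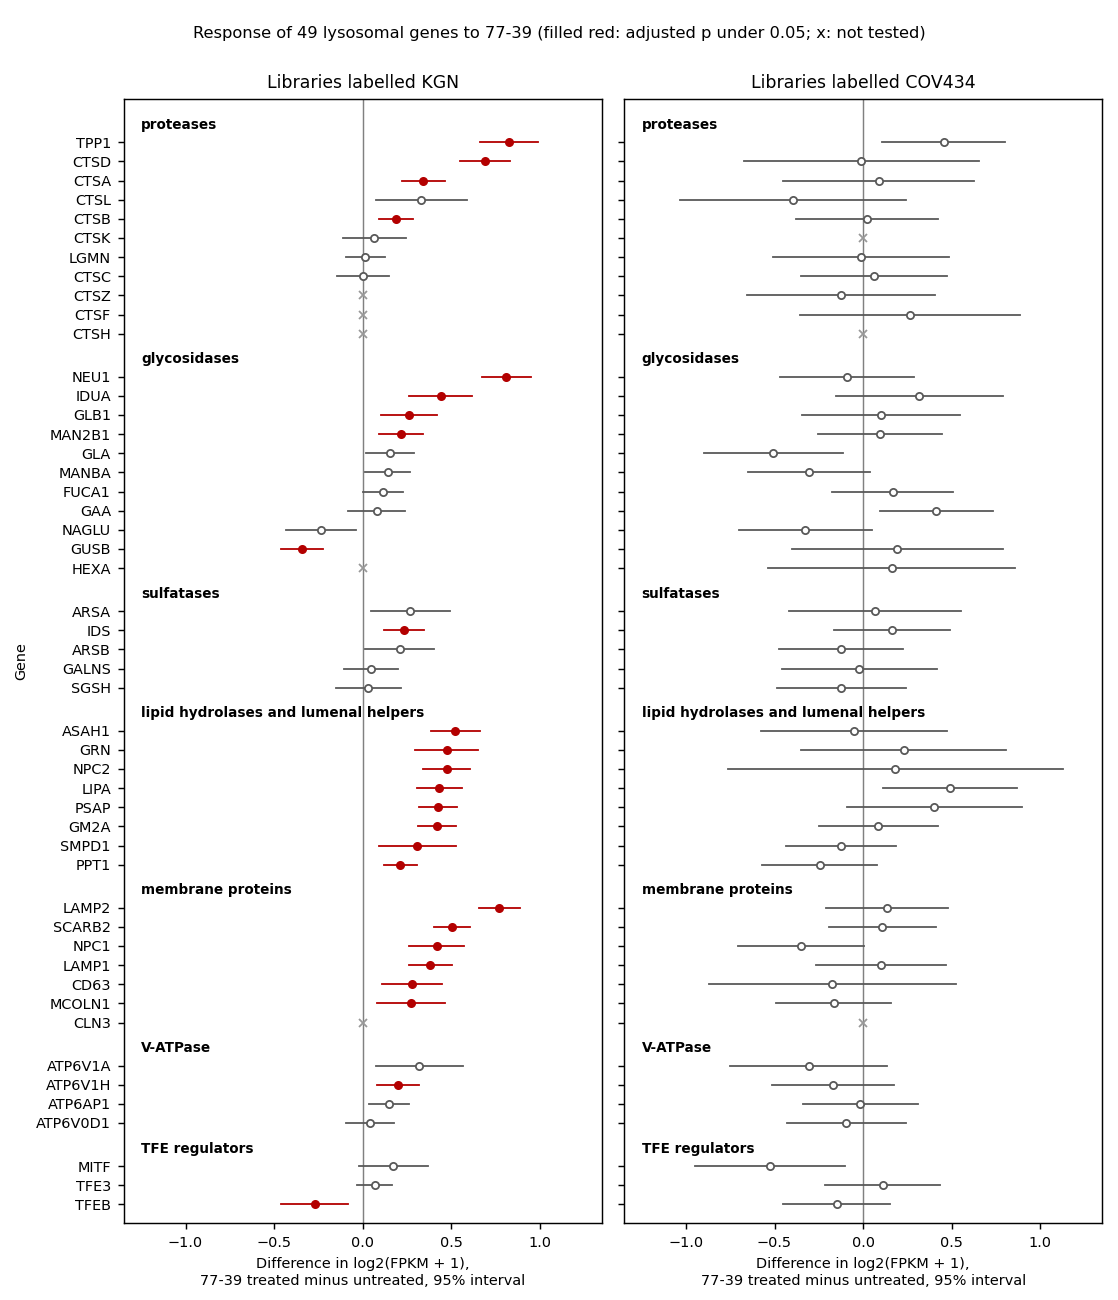
Difference between 77-39 treated and untreated libraries for the 49 lysosomal genes, on the log2(FPKM + 1) scale, with 95% intervals from limma (n = 3 libraries per group), grouped by role. The left panel shows libraries labelled KGN, where 24 genes were higher and 2 lower at an adjusted p under 0.05 (filled red), and the right panel libraries labelled COV434, where no gene passed and the intervals were wider.

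The calls were uneven between roles. All 8 lipid hydrolases and lumenal helpers and all 6 tested membrane proteins were higher. Among the proteases 4 of 8 tested were higher, among the glycosidases 4 of 10 were higher and 1 was lower, and 1 of 5 sulfatases and 1 of 4 V-ATPase subunits were higher. None of the 3 TFE regulators was higher and 1 was lower. Differences between roles were not tested.

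TPP1 (ENSG00000166340, chr11:6612763-6619485 on GRCh38, minus strand, the strand and build of all gene positions given below) is a tripeptidyl peptidase that trims peptides from their amino end. It was at 16.4, 19.4 and 18.6 FPKM in the untreated and 34.1, 33.0 and 31.3 FPKM in the treated libraries labelled KGN. The groups did not overlap, and the rise of 0.82 ± 0.07 (SE) was the largest of the 44 (ratio of means 1.81, adjusted p = 0.00048, limma). CTSD (ENSG00000117984, chr11:1752752-1764573), the main aspartic protease of the lysosome, was at 16.7, 18.7 and 19.0 FPKM untreated and at 30.3, 28.8 and 30.3 FPKM treated. Every treated library was above every untreated one, and the rise was 0.69 ± 0.06 (adjusted p = 0.00051). Other annotated genes cover 52.7% of the exonic bases of CTSD, 41.7% on its own strand, and how such reads were assigned was not given in the sources used here. CTSA, the serine carboxypeptidase that protects NEU1 and GLB1 in the lumen, rose by 0.34, and CTSB, a cysteine cathepsin, by 0.19. The cysteine proteases CTSC and LGMN showed differences of 0.00 and 0.01, CTSK of 0.07, and CTSL a difference of 0.33 with an adjusted p of 0.0522 (limma). CTSF, CTSH and CTSZ had means below 1 FPKM and were left out of the test. CTSH, a cathepsin with aminopeptidase activity, had 137, 80 and 90 reads untreated and 106, 88 and 79 reads treated, with overlap.

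The glycosidases moved in both directions. NEU1 (ENSG00000204386, chr6:31857659-31862906), the sialidase that removes terminal sialic acids, was at 11.0, 11.6 and 11.0 FPKM untreated and 19.5, 19.6 and 22.0 FPKM treated. The groups were clear of each other, with a rise of 0.81 ± 0.06 (ratio of means 1.82, adjusted p = 0.00032). IDUA, which cleaves iduronic acid from heparan and dermatan sulfate, was at 4.85, 4.68 and 4.42 FPKM and at 6.08, 6.51 and 7.48 FPKM after 77-39. Its rise was 0.44 ± 0.08 (adjusted p = 0.0056). GLB1 (ENSG00000170266, chr3:32996608-33097230) was at 18.2, 21.7 and 20.8 FPKM untreated and at 24.2, 24.7 and 24.3 FPKM treated. All 3 treated values lay above the untreated ones, and the rise of 0.26 ± 0.07 passed (ratio of means 1.21, adjusted p = 0.0235, limma). That call was lost without untreated library 3 (adjusted p = 0.0521, limma) and without treated library 1, 2 or 3 (adjusted p = 0.0627, 0.0775 and 0.0512). MAN2B1, the lysosomal α-mannosidase, rose by 0.22.

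GUSB (ENSG00000169919, chr7:65960684-65982314), the β-glucuronidase, moved the other way. Its untreated values were 11.3, 12.5 and 12.2 FPKM and its treated values 9.32, 9.03 and 9.39 FPKM. The groups did not overlap, and the difference was -0.34 ± 0.05 (ratio of means 0.77, adjusted p = 0.0031, limma). NAGLU, which acts in heparan sulfate breakdown, had a difference of -0.24 that did not pass (adjusted p = 0.0694, limma), and its groups overlapped. GLA, MANBA, FUCA1 and GAA had differences of 0.15, 0.14, 0.12 and 0.08, none of which passed. HEXA was below the minimum and was not tested.

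Among the sulfatases only IDS, which removes sulfate from iduronic acid, passed, with a rise of 0.23. ARSA, ARSB, GALNS and SGSH had differences of 0.27, 0.21, 0.05 and 0.03 with adjusted p from limma of 0.0672, 0.0939, 0.613 and 0.779.

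The lipid hydrolases and their helpers rose as a whole group, by 0.21 to 0.52. ASAH1, the acid ceramidase, was at 5.31, 5.82 and 5.25 FPKM untreated and 7.91, 8.13 and 8.82 FPKM treated. PSAP, the precursor of the saposins that present sphingolipids to their hydrolases, was the most abundant member of the module per length at 171, 167 and 167 FPKM untreated and 224, 225 and 230 FPKM treated. Both showed no overlap, with rises of 0.52 ± 0.06 for ASAH1 and 0.42 ± 0.04 for PSAP (adjusted p = 0.0013 and 0.00099, limma). GRN, the precursor of the granulins, was at 35.1, 39.8 and 41.1 FPKM untreated and 51.7, 52.4 and 58.1 FPKM treated, a rise of 0.47 ± 0.08. NPC2, which hands cholesterol to NPC1, was at 18.9, 18.3 and 17.9 FPKM untreated and 26.0, 24.2 and 27.6 FPKM treated, also a rise of 0.47. Neither gene had a treated value as low as any untreated one. LIPA, the acid lipase that splits cholesteryl esters and triglycerides, was at 13.5, 15.2 and 14.0 FPKM and reached 19.0, 19.9 and 19.6 FPKM, a rise of 0.43 ± 0.05. GM2A, the activator protein for GM2 ganglioside breakdown, was at 11.3, 10.9 and 11.0 FPKM and reached 14.7, 15.0 and 15.9 FPKM, a rise of 0.42 ± 0.05. The groups of LIPA and of GM2A were again separate. SMPD1, the acid sphingomyelinase, and PPT1, which removes palmitate from proteins, rose by 0.31 and 0.21.

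The membrane proteins rose together too. LAMP2 (ENSG00000005893, chrX:120427827-120469365), a heavily glycosylated membrane protein with a part in chaperone-mediated autophagy, was at 19.6, 19.0 and 18.3 FPKM untreated and 33.8, 33.8 and 31.5 FPKM treated. The groups lay far apart, with a rise of 0.77 ± 0.05 (ratio of means 1.74, adjusted p = 0.00022, limma). SCARB2, an abundant protein of the lysosomal membrane, was at 10.2, 10.4 and 10.6 FPKM and at 15.2, 15.6 and 14.8 FPKM with 77-39. Its rise was 0.50 ± 0.04. LAMP1, the close relative of LAMP2, was at 60.6, 61.4 and 59.5 FPKM untreated and 77.0, 76.4 and 84.0 FPKM treated, a rise of 0.38 ± 0.05. Both genes had separate groups. NPC1, the cholesterol exporter, rose by 0.42, CD63, a tetraspanin, by 0.28 and MCOLN1, the lysosomal calcium channel, by 0.27. CLN3 was read at only 0.0546 to 0.237 FPKM across all 12 libraries and was not tested. Of its exonic bases 30.9% are shared with other annotated genes.

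**Figure D2:**
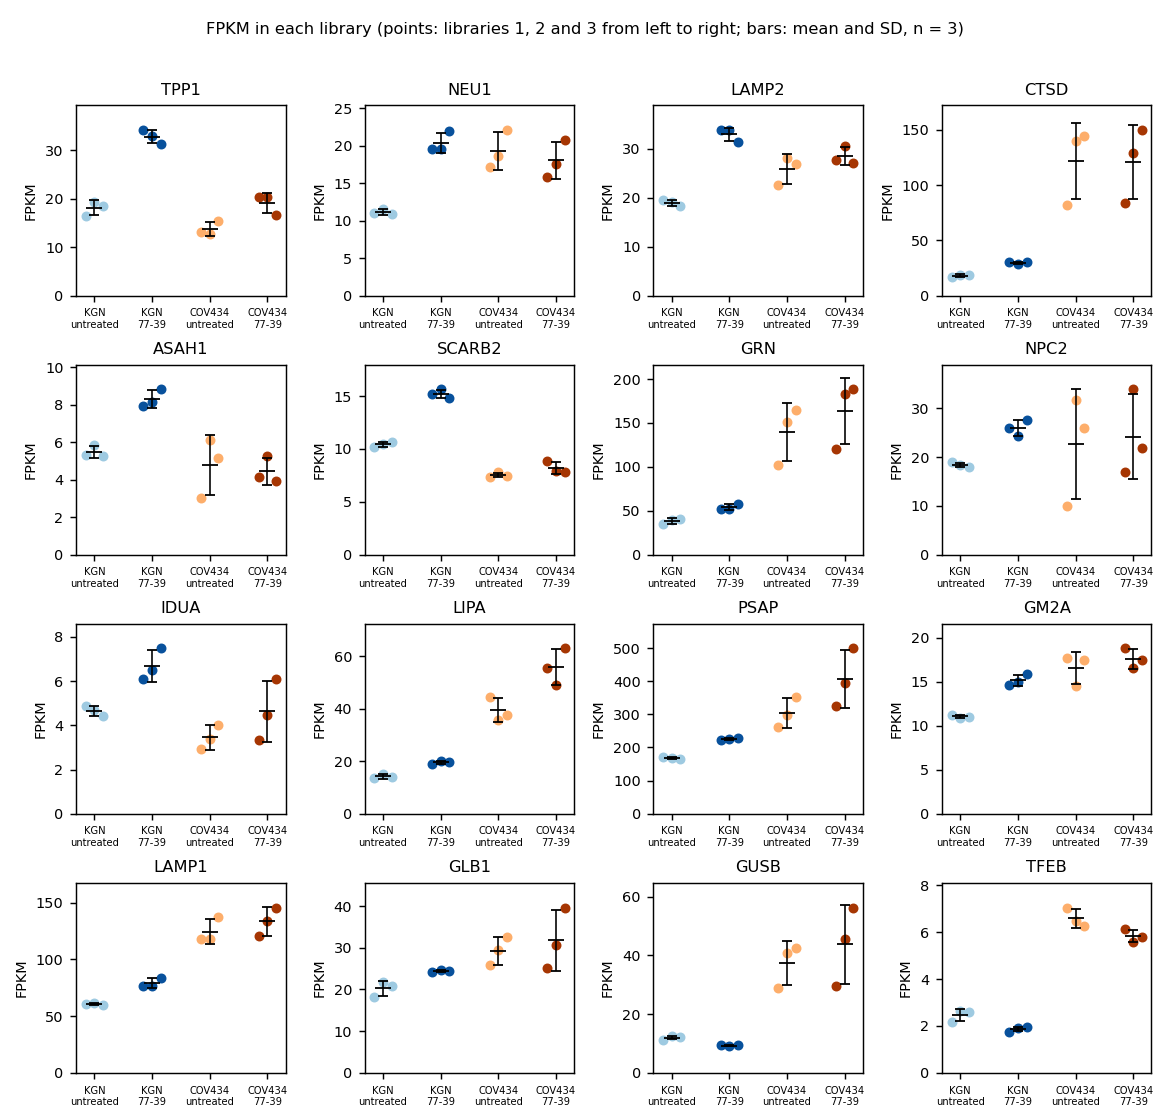
FPKM in each of the 12 libraries for 16 lysosomal genes, with group means and SD (n = 3 libraries per group) on linear axes that start at 0. In libraries labelled KGN the 14 genes from TPP1 to GLB1 have all treated points above all untreated points and GUSB and TFEB have them below, while in libraries labelled COV434 the groups overlap for all but TPP1, SCARB2, LIPA and TFEB.

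ATP6V1H, a subunit of the cytosolic sector of the V-ATPase, rose by 0.20, while ATP6V1A, ATP6AP1 and ATP6V0D1 had differences of 0.32, 0.15 and 0.04 with adjusted p from limma of 0.0529, 0.0511 and 0.614. TFEB (ENSG00000112561, chr6:41683978-41736259) was at 2.18, 2.64 and 2.61 FPKM untreated and 1.76, 1.93 and 1.94 FPKM treated. The treated values were all lower, and the difference was -0.27 ± 0.08 (adjusted p = 0.0379, limma). The TFEB call was lost without untreated library 2 or 3 (adjusted p = 0.117 and 0.119, limma) and without treated library 1, 2 or 3 (adjusted p = 0.108, 0.0863 and 0.0628). TFE3 was at 19.2, 20.2 and 19.3 FPKM untreated and 20.3, 20.8 and 20.5 FPKM treated, a difference of 0.07 that did not pass (adjusted p = 0.247, limma). MITF was low, at 1.42, 1.23 and 1.27 FPKM untreated and 1.56, 1.72 and 1.52 FPKM treated, and its difference of 0.17 did not pass either (adjusted p = 0.15, limma). TFE3 was thus the most abundant of the 3 factors per length in every library.

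The count in KGN differed when all 12 libraries were fitted together, which changes both the estimate of spread and the 13127 genes adjusted over. In that fit 8 members were higher and 0 lower at the adjusted threshold, where 3.4% and 4.33% of all genes passed. The 8 were TPP1, NEU1, LAMP2, SCARB2, LIPA, GM2A, NPC1 and LAMP1, so that LIPA and GM2A alone passed among the lipid hydrolases and helpers. The calls for CTSD, ASAH1, GRN, NPC2, IDUA, PSAP, GLB1, GUSB and TFEB were lost with the same fold changes (0.69 for CTSD in both fits). Those for CTSA, CTSB, CD63, MAN2B1, IDS, SMPD1, PPT1, MCOLN1 and ATP6V1H were lost too. Leaving out 1 library at a time left 18 to 24 members higher and 1 to 3 lower.

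Of 75 further lysosomal genes (hydrolases, membrane proteins, sorting receptors, V-ATPase subunits and the mTORC1 and Rag machinery that controls the TFE factors), 67 were tested, of which 36 were higher, 4 were lower (CTSV, TCIRG1, SIDT2 and RHEB) and 27 did not pass in libraries labelled KGN, where 17.6% of all genes were higher and 16.4% lower. Their median difference was 0.24. In this list 9 of 13 V-ATPase subunits were higher. Large rises were seen in IGF2R, the mannose 6-phosphate receptor that delivers hydrolases (0.68), RRAGB, a Rag GTPase (0.68), and CD164, a sialomucin of endosomes and lysosomes (0.65).

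Promoter windows of the members are shown because the E-box in them is what TFEB, TFE3 and MITF bind. RefSeq windows from 250 bases before to 50 bases after the start of a gene (GRCh38.p14) were at hand for 36 of the 49. The core CACGTG, which reads the same on both strands, was present in 12 of the 36 (33.3%), and in 8.77% of 27305 genes with such a window. The longer TCACGTGA, which contains that core, was present in 7 (19.4%, against 1.18%), and that form with a G before and a C after it in 3 (8.33%, against 0.421%). The windows below run 5′ to 3′ on the strand of the gene, with the longest form found in capitals.
MCOLN1 (chr19:7522598-7522627, plus strand): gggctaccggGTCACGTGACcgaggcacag
LAMP1 (chr13:113297199-113297228, plus strand): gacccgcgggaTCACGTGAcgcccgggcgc
CTSA (chr20:45891298-45891327, plus strand): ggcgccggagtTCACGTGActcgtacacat
NEU1 (chr6:31862930-31862959, minus strand): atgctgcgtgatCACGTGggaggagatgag
CTSD (chr11:1763957-1763986, minus strand): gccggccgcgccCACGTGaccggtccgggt
GAA (chr17:80101493-80101522, plus strand): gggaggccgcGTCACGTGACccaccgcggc
GALNS (chr16:88857104-88857133, minus strand): caggcaccgcGTCACGTGACccgccgctgg
The first 5 of these genes rose in libraries labelled KGN, and GAA and GALNS, with the longest form, did not pass there. Among members with a window the core was present in 6 of the 19 that rose (31.6%) and in 6 of the 17 that did not rise or were not tested (35.3%). A match describes the letters of the window and not binding.

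In libraries labelled COV434 no lysosomal gene passed the adjusted threshold. Of 46 members tested, limma called 0 higher and 0 lower, where 0.00829% and 0.0332% of 12060 genes passed. At an unadjusted p under 0.05, 3 were higher (LIPA, TPP1 and GAA) and 2 lower (MITF and GLA), where 3.52% and 4.49% of all genes passed. The median difference was 0.01, with 23 members above 0 and 23 below. The intervals were wide: the median 95% half-width of a difference was 0.38 in COV434 against 0.139 in KGN, so that a difference of 0.25, the median in KGN, was not detectable for most members here. The fit of recovered reads (voom) also called 0 in both directions with adjustment. The summed FPKM of the 49 was 1412, 1746 and 1859 untreated and 1449, 1825 and 2071 treated, with overlap and with the lowest value of each group in the library numbered 1. PSAP alone had a mean of 304 FPKM untreated and 406 FPKM treated. As a share of all FPKM the 49 took 0.421, 0.493 and 0.527% untreated and 0.380, 0.508 and 0.593% treated.

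LIPA was at 44.6, 35.8 and 37.8 FPKM untreated and 55.4, 49.1 and 63.0 FPKM treated in libraries labelled COV434. TPP1 was at 13.1, 12.7 and 15.3 FPKM untreated and 20.4, 20.3 and 16.7 FPKM treated. GAA, the acid α-glucosidase that degrades glycogen, was at 11.0, 9.08 and 10.3 FPKM untreated and 13.3, 14.1 and 14.0 FPKM treated. The treated values of all 3 genes lay above the untreated ones. Their differences were 0.49 ± 0.16, 0.45 ± 0.15 and 0.41 ± 0.14 (SE), each with an adjusted p of 0.432 in limma. GLA, the α-galactosidase, was at 32.0, 39.5 and 42.8 FPKM untreated and 23.5, 26.0 and 29.8 FPKM treated. MITF was at 8.47, 9.13 and 8.53 FPKM untreated and 7.63, 5.48 and 4.48 FPKM treated. In both the treated values lay below the untreated ones, with differences of -0.51 ± 0.17 and -0.53 ± 0.18 (adjusted p = 0.432 and 0.461, limma). Groups did not overlap for 5 members that were higher and 7 that were lower, against 6.23% and 8.16% of all genes.

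The replicate numbers were taken to pair the COV434 libraries, less clearly for number 3, and several lysosomal genes deviated by number. CTSD was at 82.3 FPKM untreated and 84.1 FPKM treated in the libraries numbered 1, and between 129 and 149.7 FPKM in the other 4. With the replicate number as a block, 6 members were higher (LIPA, PSAP, GAA, TPP1, CTSF and GRN) and 5 lower (GLA, MITF, NAGLU, NPC1 and CTSL) at an unadjusted p under 0.05, where 6.85% and 7.57% of all genes passed. None passed with adjustment, GLA coming closest (adjusted p = 0.0993, limma). PSAP was at 262, 299 and 351 FPKM in untreated libraries 1, 2 and 3 and at 324, 395 and 499 FPKM in the treated libraries of the same numbers. It was higher in each pair although the groups overlapped. Of the 46 tested members 14 (30.4%) were higher in all 3 pairs and 12 (26.1%) lower in all 3, against 17.9% and 18.9% of all genes. In KGN, whose numbers did not pair the libraries, 33 of 44 (75%) were higher and 3 (6.82%) lower in all 3 same-numbered pairs, against 32.2% and 29.3%.

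**Figure D3:**
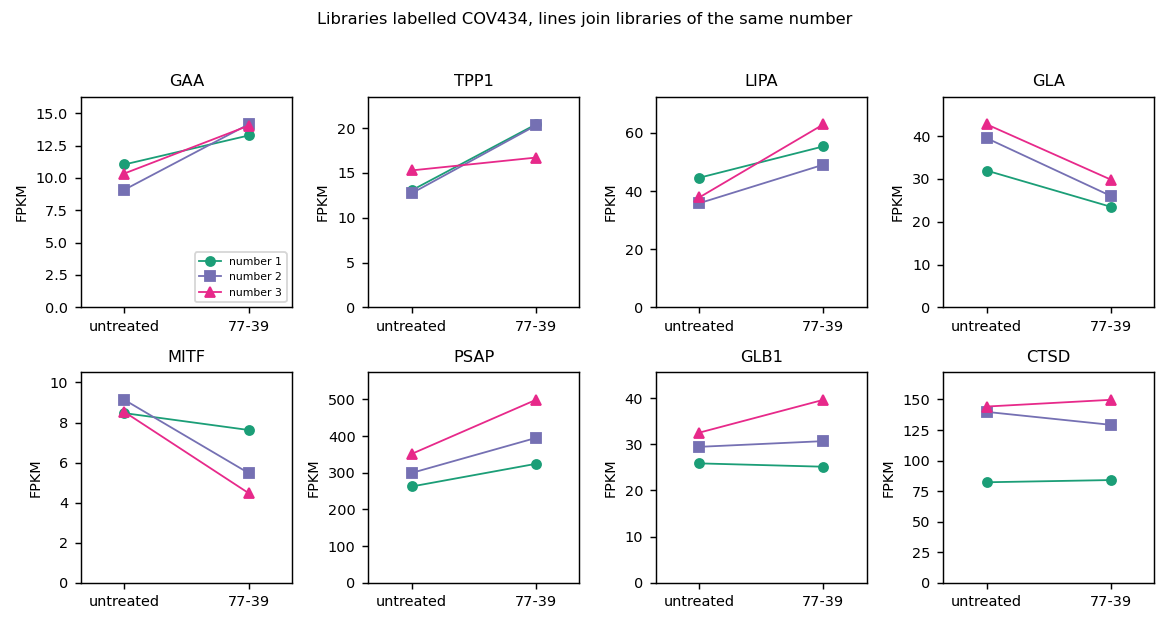
FPKM of 8 lysosomal genes in the 6 libraries labelled COV434, untreated and after 77-39, with lines that join libraries of the same number (linear axes that start at 0). GAA, TPP1, LIPA and PSAP were higher and GLA and MITF lower in all 3 pairs, while the CTSD values of both libraries numbered 1, 82.3 and 84.1 FPKM, lay below the other 4.

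GLB1 was at 25.9, 29.5 and 32.5 FPKM untreated and 25.1, 30.7 and 39.6 FPKM treated in libraries labelled COV434. The groups overlapped, and the difference was 0.10 with a 95% interval from -0.35 to 0.54. LAMP1 was at 118, 118 and 137 FPKM untreated and 121, 134 and 146 FPKM treated, with a difference of 0.10 (interval -0.27 to 0.46). TFEB was at 7.05, 6.46 and 6.25 FPKM untreated and 6.13, 5.60 and 5.78 FPKM treated, with a difference of -0.15 (interval -0.45 to 0.15) and no overlap. TFE3 was at 33.3, 29.0 and 28.3 FPKM untreated and 31.4, 32.5 and 33.9 FPKM treated, with overlapping groups and a difference of 0.11 (interval -0.21 to 0.43). No difference was detectable for these 4 genes, and their intervals include rises and falls.

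The unadjusted counts in COV434 changed with the libraries fitted. The number higher was 0 without untreated library 2, 1 without untreated library 3 or treated library 2, and 5 without treated library 1. The number lower was 0 without untreated library 3 or treated library 2, 1 without treated library 1 or 3, and 5 without untreated library 1. Without both libraries numbered 1 it was 3 higher and 6 lower. The shares of all genes in these fits are not given here, so the counts show only their dependence on the libraries. With 1 spread estimate over all 12 libraries LIPA, TPP1 and GAA were higher and GLA was lower with adjustment, where 1.7% and 1.96% of all genes passed. Of the 75 further lysosomal genes 63 were tested in COV434, and limma called 0 with adjustment and 0 at an unadjusted p under 0.05. With the replicate block 4 of them were higher and 4 lower without adjustment, where 6.85% and 7.57% of all genes passed. CTSH, below the minimum of 1 FPKM, had 8, 13 and 5 reads untreated and 21, 18 and 16 reads treated, with no overlap.

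The response to 77-39 differed between the lines for 3 members in the interaction test over all 12 libraries (limma, 47 members tested, the response in KGN minus the response in COV434). NEU1 had an interaction of 0.90 ± 0.16 (adjusted p = 0.0169, limma), with a response of 0.81 in KGN and -0.09 in COV434, where it was at 17.1, 18.7 and 22.1 FPKM untreated and 15.9, 17.5 and 20.8 FPKM treated. NPC1 had 0.77 ± 0.15 (adjusted p = 0.023, limma). It was at 3.58, 4.25 and 4.01 FPKM untreated and 5.68, 5.32 and 5.78 FPKM treated in KGN. In COV434 it was at 15.0, 11.0 and 13.0 FPKM untreated and 10.6, 9.38 and 9.92 FPKM treated. Treated values were thus all above the untreated ones in KGN and all below them in COV434. LAMP2 had 0.63 ± 0.14 (adjusted p = 0.0298, limma), and in COV434 it was at 22.5, 28.2 and 27.0 FPKM untreated and 27.7, 30.6 and 27.1 FPKM treated, with overlap. No member had a lower response in KGN at the adjusted threshold. Of all 13127 genes tested, 1.85% passed in the higher and 1.74% in the lower direction, and without adjustment 16 members were higher and 1, GAA, lower (9.59% and 8.44% of all genes).

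The interaction calls changed with the libraries fitted. With the replicate block 5 members were higher, GLA and CTSD beside NEU1, NPC1 and LAMP2, and 0 lower, where 2.06% and 2.22% of all genes passed. Without adjustment the block gave 20 higher and 3 lower (GUSB, GAA and CTSF), where 11.5% and 11.7% of all genes passed. CTSF, CTSZ, HEXA and CTSK reached the minimum mean of 1 FPKM only through 1 line. Their interactions set the change in that line against values near 0 in the other, so the call for CTSF shows no difference in response. Leaving out KGN untreated library 2 or 3 or KGN treated library 1 left 0 members, and leaving out KGN untreated library 1, KGN treated library 2 or 3 or COV434 untreated library 3 left 1. Without COV434 untreated library 1 there were 9 members, and without COV434 treated library 1 there were 7 higher and 1 lower. Without both COV434 libraries numbered 1 there were 13 higher and 2 lower. The shares of all genes in the fits with libraries left out are not given here. Those counts therefore describe how the calls depend on the libraries, not a trait of the members. MITF had an interaction of 0.70 (adjusted p = 0.0774, limma), which passed at 0.90 without those libraries (adjusted p = 0.0044, limma). GLB1, LAMP1, TFEB and TFE3 had interactions of 0.16, 0.28, -0.12 and -0.04 (adjusted p = 0.758, 0.331, 0.653 and 0.9, limma). Of the further lysosomal genes 66 were tested, and 2 passed, among them FNIP1, a partner of folliculin (0.73).

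Before any treatment the lines differed widely over all genes, and the lysosomal members were more often lower than higher in KGN. Of 47 members tested between the untreated libraries, 10 were higher and 28 lower in KGN than in COV434 at an adjusted p under 0.05, where 32.6% and 36.4% of 13098 genes passed. The median difference, KGN minus COV434, was -0.54 over the members and -0.02 over all genes. A fit of the recovered reads moved the median of all genes to 0.18 and gave 11 higher and 25 lower members, so that differences are best read against that shift. The shares of all genes called in that fit are not given here. The lower calls covered all 3 TFE regulators, 5 of 6 tested membrane proteins, 3 of 4 V-ATPase subunits, 6 of 11 glycosidases, 5 of 8 lipid hydrolases and helpers and 5 of 10 proteases, whereas 2 of 5 sulfatases were higher and 1 was lower.

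Among the lower members, 3 were nearly absent from libraries labelled KGN. CTSZ, a carboxypeptidase, was at 102, 121 and 130.3 FPKM in COV434 and had 6, 4 and 3 reads in KGN. CTSF, a cysteine cathepsin, was at 15.5, 26.5 and 26.5 FPKM in COV434 and had 0, 1 and 3 reads in KGN. HEXA, the α subunit of hexosaminidase, was at 5.14, 8.90 and 9.38 FPKM in COV434 and had 2 reads in each KGN library. They were as scarce in the treated KGN libraries, with at most 5 reads each. CTSK, the cathepsin known from bone resorption, showed the reverse. It was at 6.86, 6.86 and 6.57 FPKM in KGN and at 0.416, 0.187 and 0.0633 FPKM in COV434, a difference of 2.68 ± 0.12 (adjusted p = 2.2e-06, limma). CTSK, CTSZ, CTSF and HEXA reached the minimum mean of 1 FPKM only through the line in which they were abundant. The minimum thus largely fixed the direction of their calls, which are part of the counts of higher and lower members above. Their FPKM values and reads describe the difference better than the test does. CTSH, below the minimum and not tested, was also higher in KGN, with 137, 80 and 90 reads against 8, 13 and 5 in COV434.

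**Figure D4:**
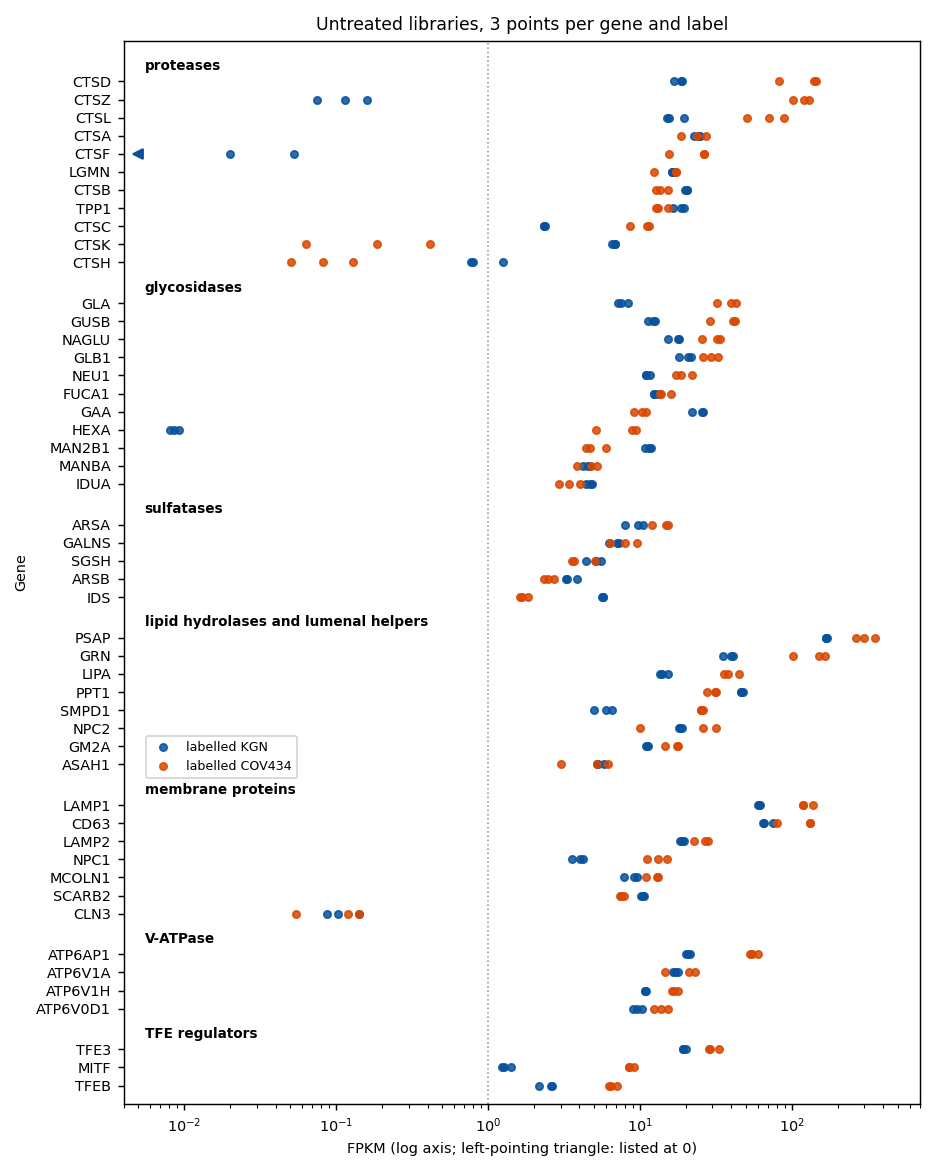
FPKM of the 49 lysosomal genes in the untreated libraries (log axis, 1 point per library, 3 libraries per label, grouped by role). The triangle marks a value listed at 0 and the dotted line 1 FPKM. CTSZ, CTSF and HEXA lie below 1 FPKM only in libraries labelled KGN and CTSK only in libraries labelled COV434, while CLN3 lies below it in both.

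CTSD was the next lowest in KGN, with 16.7 to 19.0 FPKM against 82.3 to 144.2 FPKM and a difference of -2.65 ± 0.22. GLA (7.21 to 8.32 against 32.0 to 42.8 FPKM), MITF (1.23 to 1.42 against 8.47 to 9.13 FPKM), CTSL (15.1 to 19.5 against 50.6 to 89.2 FPKM) and SMPD1 (4.96 to 6.50 against 25.2 to 26.0 FPKM) followed, with differences of -2.17, -2.08, -1.98 and -1.96. None of these groups overlapped. TFEB, TFE3, LAMP1 and GLB1 were lower in KGN as well, by differences of -1.13, -0.60, -1.03 and -0.51.

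On the higher side IDS was at 5.60, 5.69 and 5.74 FPKM in KGN and 1.67, 1.82 and 1.63 FPKM in COV434, a difference of 1.30 ± 0.07. GAA was at 22.1, 26.2 and 25.8 FPKM against 11.0, 9.08 and 10.3 FPKM, a difference of 1.20 ± 0.11. For both genes every KGN value exceeded every COV434 value. MAN2B1, PPT1, CTSB, SCARB2 and TPP1 followed with 1.04, 0.60, 0.52, 0.42 and 0.38. The TPP1 call was lost without KGN untreated library 2 or 3 (adjusted p = 0.0759 and 0.071, limma). With 1 library left out at a time 8 to 11 members were higher and 26 to 31 lower.

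Of the further lysosomal genes 66 were tested between the untreated lines, of which 18 (27.3%) were higher and 27 (40.9%) lower in KGN, near the 32.6% and 36.4% of all genes. Those lower were led by HYAL1, a hyaluronidase (-4.47), EPDR1, a lipid-binding lysosomal protein (-2.45), and LAPTM4A, a lysosomal membrane protein (-2.19). Among those higher, CTSV, a cathepsin close to CTSL, differed by 2.38 and FNIP2, a folliculin partner, by 2.23. GALC, the galactosylceramidase, had a mean of 7.42 FPKM in KGN and was listed at 0 in all 3 untreated COV434 libraries. HYAL1, CTSV and GALC also reached the minimum mean of 1 FPKM through a single line, which largely fixed the direction of their calls.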

How the data were processed

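Total RNA of 12 libraries was sequenced by the study on an Illumina NovaSeq instrument. The authors deposited gene-level FPKM, with gene lengths. The submitters' processing notes name HISAT2 2.0.5 and the mouse builds mm10 and mm8, and the extraction label speaks of retinas, but all 58735 genes are human and their coordinates match GENCODE release 29 (GRCh38). The counter, its use of strand and how multimapped reads were treated were not given in the sources used here. FPKM were whole multiples of 1 read in 100% of values (tolerance 0.05 read), which gave the reads per library. The total the authors scaled by was 1.07 to 1.10 times the reads on genes in KGN and 0.911 to 0.978 times in COV434.

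Groups were taken from the titles. Genes whose mean over the fitted libraries reached 1 FPKM were tested as log2(FPKM + 1) with limma 3.58.1 in R 4.3.3 (trended empirical Bayes, two-sided), each line alone, with Benjamini-Hochberg adjustment over all genes tested and a threshold of 0.05. The difference in response was an interaction over 12 libraries. The test was chosen as a model for replicated log values because the methods do not state that of the sequencing provider. Figures were drawn with Python 3.11.15 and matplotlib 3.10.9. The scripts were tested on simulated data with 200 changed genes. The intervals are 95% intervals.

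Alternatives were a pseudocount of 0.1, a mean FPKM minimum of 0.1, no filter, median-ratio scaling, voom on the recovered reads, 1 fit of all 12 libraries, the replicate number as a block and each library left out. COV434 and the interaction without both COV434 libraries numbered 1 were added after the data were seen. Deviations of same-numbered COV434 libraries from their group means correlated at 0.40, 0.474 and 0.166 over 12060 genes, all above 0.1, so the numbers were taken to pair these libraries. Untreated library 3 with treated library 2 also passed 0.1, at 0.154, so the match of number 3 is not clear from these values. The other combinations of unlike number ran from -0.469 to 0.0152. The pairing comes from the data, since the labels only number the libraries.

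The module, the further lysosomal genes and the markers were chosen with earlier results of these data known. Genes named were those with the largest changes past the threshold (up to 12 higher and 8 lower with 77-39, up to 8 each way for the interaction and the untreated lines, up to 6 each way by unadjusted p where none passed), up to 6 of the further genes, some of which are not reported here, and GLB1, LAMP1, TFEB, TFE3 and MITF in every comparison. Other members are given by their differences. Of the 49 members 28 share no exonic base with another gene. Promoter windows and motifs were read from RefSeq (GRCh38.p14). The further granulosa markers were AMH, INHA, CYP19A1 and SMARCA4, at 4.07 to 4.83, 0.58 to 1.22, 0.0482 to 0.161 and 2.25 to 2.60 FPKM in KGN and at 5.45 to 9.14, 2.40 to 5.22, 0.0396 to 0.128 and 6.51 to 12.6 FPKM in COV434.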

Additional observations from a re-analysis of the deposited data

Results flagged for a closer look

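The response to 77-39 differed between the libraries labelled KGN and those labelled COV434 by the interaction test for 3 lysosomal genes. On the log2(FPKM + 1) scale the response in KGN exceeded that in COV434 by 0.90 for NEU1, by 0.77 for NPC1 and by 0.63 for LAMP2. Each call was lost when some single libraries were left out, for NEU1 without KGN untreated library 2 or 3 or KGN treated library 1 (adjusted p from limma of 0.0502, 0.0573 and 0.0505). For NPC1 and LAMP2 it was lost without any 1 of the 6 KGN libraries (adjusted p from 0.0544 to 0.0726 and from 0.0599 to 0.0962, limma), and for both also without COV434 untreated library 3 (0.0558 and 0.0784). The NPC1 call was further lost without COV434 treated library 2 (adjusted p = 0.0563, limma) and the LAMP2 call without COV434 untreated library 2 (adjusted p = 0.0516, limma). All 3 passed without both COV434 libraries numbered 1 (adjusted p = 0.0062, 0.0098 and 0.0052, limma).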

How the results depend on the processing

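In KGN, 1 fit of all 12 libraries left 8 members higher and 0 lower, and a mean FPKM minimum of 0.1 or no filter left 1 lower. With 1 library left out there were 18 to 24 higher and 1 to 3 lower. The KGN libraries shared only a number, since deviations of same-numbered libraries correlated at -0.0164, -0.018 and -0.019. With the replicate block 22 members were higher and 2 lower there. In COV434, 1 fit of all 12 libraries gave 3 higher and 1 lower with adjustment and 5 higher and 6 lower without, the replicate block 6 higher and 5 lower without, no filter 4 lower, and leaving out both libraries numbered 1 gave 6 lower. With 1 COV434 library left out, the adjusted counts stayed at 0 in both directions and the unadjusted counts ran from 0 to 5 in each. For the interaction, the replicate block gave 5 higher, 1 library left out 0 to 9 higher and 0 to 1 lower, and both COV434 libraries numbered 1 left out 13 higher and 2 lower. In the untreated comparison 1 library left out gave 8 to 11 higher and 26 to 31 lower. The sign of GLB1 in COV434 turned without 77-39 library 3 (-0.067, range with 1 library left out -0.067 to 0.25), and that of TFE3 in the interaction without COV434 untreated library 3 (0.00022, range -0.11 to 0.00022). Except where fewer libraries were fitted, the cause was not tested. Without adjustment the replicate block gave 3 members lower in the interaction, against 1, and CTSF among the 3 was nearly absent from KGN. Leaving out a library can leave 2 in a group, whose spread is then pooled over genes and groups. No share of all genes is set beside the counts with libraries left out, so they describe stability only. Members under a mean of 1 FPKM were left out by choice of minimum.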
